A study of Mus musculus with 15 samples.

Results

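The genes of 3 protein families that act on the extracellular matrix were followed in mouse skin: the matrix metalloproteinases (MMPs), the ADAMTS proteases and the tissue inhibitors of metalloproteinases (TIMPs). Their genes were taken from the count table by symbol, as Mmp, Adamts or Timp followed by a number and an optional final letter, with at least 10 counts summed over the 15 libraries. Of 46 genes with such a symbol, 43 reached that sum, out of 56059 genes in the table: 20 of 23 Mmp genes, all 19 Adamts genes and all 4 Timp genes. Mmp7, Mmp20 and Mmp21 did not reach it and are not described further. The low-count filter of the test kept 39 of the 43. Mmp1a, Mmp1b, Mmp24 and Adamts16 were too low and are given by their counts or levels alone.

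The study modelled sclerodermatous chronic graft-versus-host disease (cGVHD) by bone marrow transplantation, in which immune cells of the donor attack the skin of the recipient. Skin RNA came from 4 groups, here called syngeneic, allogeneic, Wnt-C59 and combination, with 4, 3, 4 and 4 libraries. All mice received an agent or vehicle by mouth every day from day 21 to day 49 after transplantation. Syngeneic recipients, which lack the donor mismatch, and the allogeneic group received the vehicle, 0.4% methylcellulose. The Wnt-C59 group were allogeneic recipients given Wnt-C59 at 5 mg/kg, an inhibitor of porcupine, the enzyme that Wnt ligands need for secretion. The combination group were allogeneic recipients given Wnt-C59 at 5 mg/kg and belumosudil at 150 mg/kg, an inhibitor of the kinase ROCK2. Belumosudil alone was not analysed here, so the combination can be set against Wnt-C59 but not against its other component. The labels give no strain, age or sex, and do not say whether each library is 1 animal, so p-values measure only the spread between these libraries. Treated libraries are named by the numbers in the table (1, 2, 4 and 5 in the Wnt-C59 group, 2, 3, 4 and 5 in the combination group).

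MMPs are zinc proteases made as inactive precursors and grouped by what they cut: collagenases open the triple helix of fibrillar collagen, gelatinases cut the opened chains and basement membrane collagen, and stromelysins cut a wide range of matrix proteins and activate other MMPs. ADAMTS proteases are secreted relatives that bind the matrix, and include enzymes that cut proteoglycans such as versican and aggrecan and enzymes that trim the amino-terminal end of procollagen so that fibrils can form. TIMPs bind the active site of these proteases and block it. In skin, the balance between them is known for its part in wound repair, hair follicle cycling and fibrosis. RNA levels do not show how much of a precursor is activated.

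A set of 10 Mmp genes lies in 1 row on chromosome 9, in the order Mmp13, Mmp12, Mmp1b, Mmp3, Mmp1a, Mmp10, Mmp8, Mmp27, Mmp20 and Mmp7, and 8 of them are members. Promoter windows from 250 bases before to 50 bases after the RefSeq start (build GRCm38.p6) were at hand for 29 of the 43 members, including these 8. The AP-1 motif TGANTCA, on either strand, was found for 6 of these 8 genes (75.0%) and for 0 of the 21 other members with a window. Of all 27025 genes in the promoter set, 8.97% had it. A gene was counted if any of its windows held the motif. The motif TATAAA, also on either strand, was found for 7 of the 8 genes (87.5%), for 1 of the 21 others (4.76%) and for 15.7% of the 27025. The 2 motifs share no base in these windows. The TATAAA match of Mmp8 spans the start (bases -3 to 2) and lies on the opposite strand. That of Mmp12 lies after the start (bases 4 to 9). The 100 bases before the start are shown for the genes of the row that the results turn on, and for Mmp1a and Mmp1b. These are related interstitial collagenase genes, whose reads may be hard to assign. Capitals mark the AP-1 motif, and Mmp8, without it, is shown for contrast. A match of letters is a description and not a measured binding site.
Mmp13, chr9:7272414-7272513, plus strand: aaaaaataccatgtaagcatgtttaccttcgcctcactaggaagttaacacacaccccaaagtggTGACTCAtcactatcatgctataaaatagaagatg
Mmp12, chr9:7347274-7347373, plus strand: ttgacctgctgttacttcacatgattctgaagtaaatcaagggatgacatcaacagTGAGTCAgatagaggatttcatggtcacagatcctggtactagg
Mmp3, chr9:7445722-7445821, plus strand: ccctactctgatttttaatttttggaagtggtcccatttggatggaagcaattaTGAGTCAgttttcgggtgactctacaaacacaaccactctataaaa
Mmp10, chr9:7502242-7502341, plus strand: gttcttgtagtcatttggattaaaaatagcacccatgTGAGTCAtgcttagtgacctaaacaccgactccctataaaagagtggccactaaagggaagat
Mmp1a, chr9:7464041-7464140, plus strand: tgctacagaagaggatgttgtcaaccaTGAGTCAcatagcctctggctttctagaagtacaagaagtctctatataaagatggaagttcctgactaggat
Mmp1b, chr9:7388027-7388126, minus strand: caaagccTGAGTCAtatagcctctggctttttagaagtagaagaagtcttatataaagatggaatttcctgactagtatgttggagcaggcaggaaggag
Mmp8, chr9:7558329-7558428, plus strand: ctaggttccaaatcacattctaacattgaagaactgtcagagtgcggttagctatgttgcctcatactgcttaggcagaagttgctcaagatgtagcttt

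Each library held 16.26 M to 28.78 M counts. Vehicle and treated libraries differed in ways that no group label explains. Of the values above 0, 31.1% to 34.4% were not whole numbers in vehicle libraries and 44.8% to 60.6% in treated libraries. Malat1, a nuclear noncoding RNA, stood at 1070 to 3500 CPM in the 7 vehicle libraries and 65.0 to 136 CPM in the 8 treated libraries, where CPM is the count scaled to library size. Over all genes, the log2 fold change was correlated across genes with GC content (Spearman 0.50 with Wnt-C59 and 0.54 with the combination, each against allogeneic, and -0.10 for allogeneic against syngeneic). Treatment and this library difference cannot be told apart in any comparison of treated with vehicle libraries. Allogeneic library 2 stood apart within its group, with a neutrophil marker sum of 96.8 CPM against 3560 and 413 in libraries 1 and 3. Combination libraries 4 and 5 differed from libraries 2 and 3 in hair follicle genes (42200 and 5760 CPM summed over 13 genes, against 107 and 85.1) and in skeletal muscle genes (2290 and 26.0 CPM against 28800 and 11300).

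In syngeneic skin, the most abundant members per length of transcript were 2 inhibitors and 2 MMPs that fibroblasts make. Mean levels, in CPM per kb of the longest transcript, were 66.2 ± 15.4 (SD, n = 4) for Timp2, 56.8 ± 26.3 for Mmp2, 51.5 ± 8.5 for Timp3 and 44.3 ± 19.8 for Mmp14. These 4 neighbours do not differ beyond their spread, and the next gene, Adamts1, stood lower at 15.8 ± 2.53. In allogeneic skin the leading gene was Mmp13 at 83.4 ± 71.2 (SD, n = 3), followed by Timp2 at 82.1 ± 9.37, Mmp9 at 58.3 ± 42.7, Mmp14 at 55.9 ± 23.6, Mmp2 at 50.8 ± 20.0 and Mmp12 at 42.2 ± 29.7, again with overlapping spreads. Timp2 led in Wnt-C59 skin at 126 ± 35.0 (SD, n = 4), and Mmp2 in combination skin at 128 ± 17.1. The second gene there was Mmp2 (103 ± 39.3) and Timp2 (108 ± 16.9), respectively.

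The make-up of the summed MMP level is given for 5 genes, Mmp8, Mmp9, Mmp10, Mmp12 and Mmp13, chosen after their values were seen. That choice fixes a difference between both vehicle groups, so the shares are a description with no test. The 5 genes together made 1.45% to 2.44% of the summed MMP level per kb in syngeneic libraries. They made 58.1%, 22.3% and 51.3% in allogeneic libraries 1, 2 and 3. The share was 3.24% to 15.1% in Wnt-C59 libraries and 1.67% to 5.31% in combination libraries. Treated libraries lay between both vehicle groups, apart from combination library 4, which lay within the syngeneic range. The summed MMP level itself was 547 and 458 CPM per kb in allogeneic libraries 1 and 3, and 126 in library 2, inside the syngeneic range of 101 to 221.

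**Figure D1:**
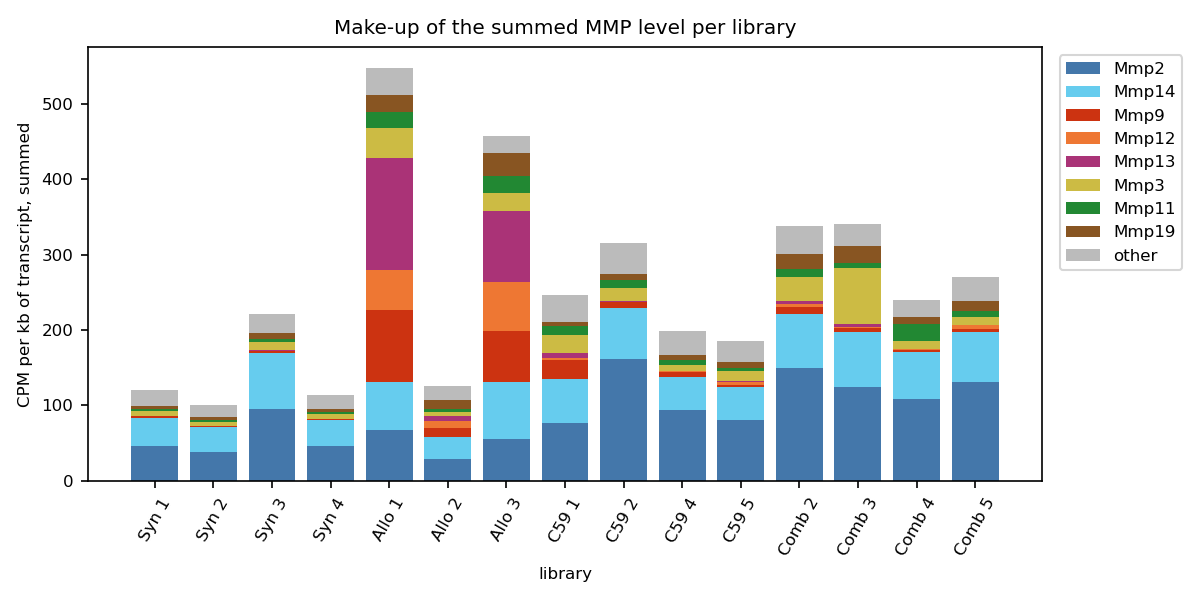
Summed MMP level per library, in CPM per kb of the longest transcript, stacked by gene. Mmp9, Mmp12 and Mmp13 fill much of the bars of allogeneic libraries 1 and 3 (sums of 547 and 458), while allogeneic library 2 (126) is no taller than syngeneic library 3 (221).

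The first question was how the 3 families differed between allogeneic and syngeneic skin. Of the 39 members tested, 14 passed at an adjusted p under 0.05 (8 higher and 6 lower in allogeneic skin), where 29.8% of all 18651 genes tested passed (14.6% higher and 15.1% lower). The 14 are 35.9% of the members tested, near that background. By family the counts differed: 8 of 17 Mmp genes rose and 1 fell, 0 of 18 Adamts genes rose and 5 fell, and 0 of 4 Timp genes passed either way. The median log2 fold change was 1.65 for the Mmp genes, -0.67 for the Adamts genes and 0.36 for the Timp genes, against -0.07 for all genes.

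Both collagenases that could be tested rose. Mmp8, the collagenase stored in neutrophil granules, stood at 38.3, 0.359 and 7.89 CPM in allogeneic libraries 1, 2 and 3, and at 0.0458 CPM in syngeneic library 3 and 0 in the other syngeneic libraries. The groups did not overlap, but allogeneic library 2 lay far below the others. The allogeneic to syngeneic ratio was 1340 (95% counting interval 240 to 53000, from 776 counts and 1 count, which covers counting error only), and the adjusted p was 0.0011. Mmp13, a collagenase of fibroblasts and keratinocytes at wound edges, stood at 397, 19.7 and 252 CPM in allogeneic skin and at 0.186 to 1.69 CPM in syngeneic skin. Its log2 fold change was 8.36 ± 1.8 (SE, adjusted p = 0.0043), and every allogeneic library lay above every syngeneic one. Mmp1b had 49 counts over the allogeneic group and Mmp1a had 11, while both had 0 in syngeneic skin. Pooled over the group, this makes Mmp1b at least 28.2-fold higher and Mmp1a at least 6.33-fold higher (against a floor of 3 counts over the group). Allogeneic library 1 held 42 and 9 of these counts, so the pooled ratios rest mostly on 1 library. Mmp1b stood at 2.55, 0.18 and 0.226 CPM in allogeneic libraries 1, 2 and 3, and Mmp1a at 0.547, 0.0599 and 0.0564 CPM. In bulk tissue, more cells of a type and more RNA per cell cannot be told apart.

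Of the gelatinases, Mmp9 rose and Mmp2 did not pass. Mmp9, made by neutrophils, macrophages and keratinocytes, stood at 303, 37.2 and 215 CPM in allogeneic skin against 2.88 to 8.47 CPM in syngeneic skin. The groups did not overlap, and the log2 fold change was 5.08 ± 0.88 (SE, adjusted p = 0.0011). Mmp2, a gelatinase of dermal fibroblasts, stood at 209, 88.9 and 171 CPM in allogeneic libraries and at 143, 118, 295 and 144 CPM in syngeneic ones, with overlap. With a log2 fold change of -0.16 ± 0.35 (adjusted p = 0.76), its sign turned without syngeneic library 3 (0.21), without allogeneic library 2 (0.14) and with the GC trend removed (0.05).

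Among the stromelysins, Mmp10 and Mmp11 rose. Mmp10 (stromelysin 2), which migrating keratinocytes make, stood at 9.84, 0.239 and 7.05 CPM in allogeneic skin and at 0 CPM in 3 syngeneic libraries and 0.0882 in the fourth. The ratio was 251 (95% counting interval 68.9 to 2080, from 291 and 2 counts), with an adjusted p of 0.014. Mmp11 (stromelysin 3), a stromal enzyme, stood at 48.6, 9.40 and 49.0 CPM against 6.61, 5.80, 7.32 and 4.85 CPM, without overlap (log2 fold change 2.54 ± 0.54, SE, adjusted p = 0.0034). Mmp3 (stromelysin 1) stood at 69.8, 8.38 and 43.4 CPM against 9.09 to 20.0 CPM, overlapping through allogeneic library 2, and did not pass (adjusted p = 0.11). Without that library its log2 fold change was 2.16 and it passed (adjusted p = 0.039).

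Mmp12, the macrophage metalloelastase, which cuts elastin, had the smallest adjusted p of all members. It stood at 235, 39.2 and 293 CPM in allogeneic skin and at 3.81, 2.18, 1.97 and 1.72 CPM in syngeneic skin. The groups were separate by a wide margin, with a log2 fold change of 6.28 ± 0.84 (SE, adjusted p = 0.0002). Its exons overlap those of Mmp1b on the opposite strand, and no label states a strand setting, so part of the reads could come from either gene. Mmp19, an MMP of keratinocytes and myeloid cells, rose from 14.4, 14.5, 27.0 and 14.6 CPM to 78.6, 39.9 and 108 CPM, without overlap between the groups. The log2 fold change was 2.09 ± 0.36 (SE, adjusted p = 0.00067), and its exons overlap those of Tmem198b on the opposite strand.

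**Figure D2:**
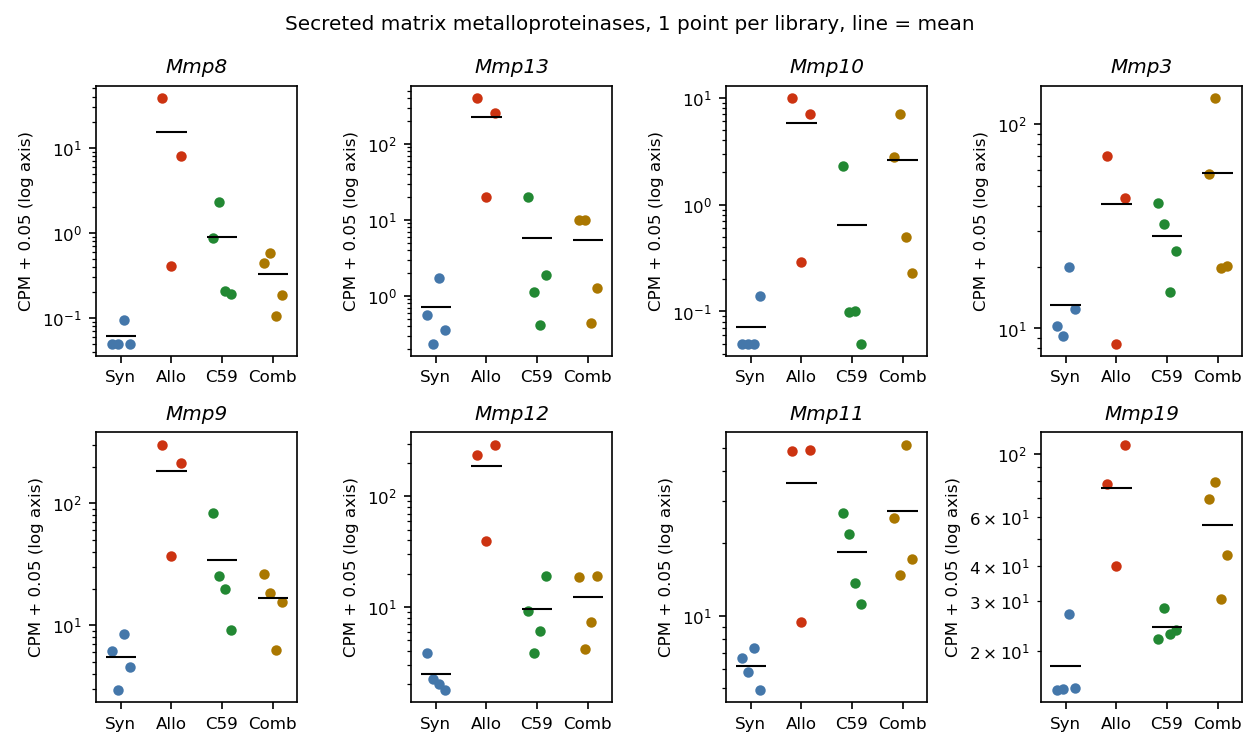
Levels of 8 secreted MMPs, 1 point per library and a line at the group mean, in CPM + 0.05 on a log axis; Syn, Allo, C59 and Comb are the syngeneic, allogeneic, Wnt-C59 and combination groups. Mmp12 is separate between both vehicle groups (1.72 to 3.81 against 39.2 to 293 CPM), and the lowest allogeneic point of each gene shown is library 2.

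Of 6 membrane-anchored MMPs tested, which act at the cell surface, 1 rose and 1 fell. Mmp25, an MMP of leukocytes, stood at 5.95, 5.51 and 6.09 CPM in allogeneic skin and at 0.838 to 2.23 CPM in syngeneic skin, and passed as higher without overlap. Mmp23 stood at 4.31, 5.39 and 4.00 CPM against 10.8, 6.49, 16.3 and 8.29 CPM and passed as lower (adjusted p = 0.016). This last call ended on leaving out allogeneic library 1 (adjusted p = 0.054) or library 3 (0.078). Mmp14, the activator of Mmp2 at the cell surface, stood at 205, 95.4 and 243 CPM against 107 to 239 CPM, with overlap and a log2 fold change of 0.33 ± 0.31 (adjusted p = 0.45). Mmp15, Mmp16 and Mmp17 did not pass, nor did the secreted Mmp27 and Mmp28. Without allogeneic library 2, Mmp15 passed as lower (-0.65, adjusted p = 0.034).

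No ADAMTS gene rose in allogeneic skin and 5 fell. Adamts20, a proteoglycan-cleaving protease known from coat pigmentation, stood at 2.00, 4.61 and 1.86 CPM in allogeneic skin and at 19.3, 31.8, 15.2 and 21.9 CPM in syngeneic skin. Its log2 fold change was -2.96 ± 0.71 (SE, adjusted p = 0.0064). Adamts18 stood at 0.121, 0.419 and 0.451 CPM against 8.62, 6.35, 3.98 and 6.00 CPM, a log2 fold change of -4.21 ± 0.97 (adjusted p = 0.0051). For both genes the lowest syngeneic library lay above the highest allogeneic one. Hair follicle genes moved the same way: all 13 listed fell, and their summed level was 8220 to 24800 CPM in syngeneic and 32.6 to 58.5 CPM in allogeneic libraries, with Krt33a at 0 in the latter. Their part in the ADAMTS results was not tested.

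Of the procollagen N-propeptidases, Adamts14 and Adamts3 fell. Adamts14 stood at 7.47, 12.1 and 8.96 CPM in allogeneic skin and at 31.7, 22.5, 21.9 and 21.8 CPM in syngeneic skin, without overlap (log2 fold change -1.36 ± 0.27, SE, adjusted p = 0.0016). Adamts3 was low throughout, with means of 0.175 and 1.39 CPM, and its call ended on leaving out syngeneic library 1 (adjusted p = 0.08), or on leaving out allogeneic library 1 (0.061), 2 (0.084) or 3 (0.059). Without syngeneic library 4 it fell under the low-count filter and was not tested. Adamts2, the main enzyme for type I procollagen, stood at 56.9, 24.7 and 53.3 CPM against 51.2 to 93.3 CPM and did not pass. Adamts10, a protease that binds fibrillin microfibrils, stood at 18.8, 12.8 and 18.4 CPM against 48.1, 34.7, 32.2 and 33.1 CPM, without overlap, and fell (log2 fold change -1.15 ± 0.26, adjusted p = 0.0043). Adamts1, Adamts4, Adamts5 and Adamts9, which cut versican or aggrecan, did not pass.

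None of the 4 TIMP genes passed in allogeneic against syngeneic skin. Timp1, the inhibitor that inflammatory signals induce, stood at 44.3, 16.8 and 17.4 CPM against 3.90, 5.66, 9.52 and 7.85 CPM. The groups did not overlap, yet the log2 fold change of 1.96 ± 0.73 (SE) missed the threshold (adjusted p = 0.06), while DESeq2 (adjusted p = 0.0087) and a fit of these 2 groups alone (0.0084) called it. Timp2, which also helps Mmp14 activate Mmp2, had a log2 fold change of 0.31 ± 0.22 (adjusted p = 0.31). Timp3, which is bound to the matrix and also blocks ADAMTS proteases, had -0.29 ± 0.27 (adjusted p = 0.45), and Timp4 had 0.41 ± 0.53 (adjusted p = 0.6). The ratio of the summed TIMP to the summed MMP level per kb was 0.287 and 0.355 in allogeneic libraries 1 and 3 and 1.17 in library 2, against 0.645 to 1.13 in syngeneic libraries.

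Leukocyte markers moved with the MMPs in allogeneic skin. All 5 neutrophil markers that could be tested, of 8 listed, rose, and their summed level was 5.69 to 7.76 CPM in syngeneic libraries and 3560, 96.8 and 413 CPM in allogeneic libraries 1, 2 and 3. No neutrophil marker was at 0 in a whole group. Of 12 macrophage markers 10 rose and 1 fell, with sums of 459 to 799 and 3290 to 4700 CPM and Marco at 0 in the allogeneic group. Of 10 genes of stressed keratinocytes 8 rose, with sums of 1330 to 3170 and 10400 to 20200 CPM. The part of these cells in the MMP results was not tested.

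All 14 calls in this comparison were kept with the GC trend removed. With the adipocyte marker score of each library as a covariate 2 of the 14 remained (Mmp12 higher and Adamts10 lower), while the share of all genes called was 8.64%. Adipocyte marker sums were 1150 to 2390 CPM in syngeneic and 547 to 1160 CPM in allogeneic libraries, so the score largely follows the group. Without allogeneic library 1 the log2 fold changes of Mmp8 and Mmp13 were 7.89 and 7.64, and that of Mmp10 was 6.99. Without syngeneic library 3 they were 11.29 for Mmp8, which then had no syngeneic count, and 9.36 for Mmp13. Without syngeneic library 4 that of Mmp10 was 9.86, and without allogeneic library 2 those of Mmp8 and Mmp10 were 10.41 and 8.23. Each of these values still passed, that of Mmp10 without syngeneic library 4 only just (adjusted p = 0.05 after rounding). With limma-voom Mmp10 (6.30, adjusted p = 0.061) and Mmp23 (-1.12, adjusted p = 0.057) did not pass. In a fit of these 2 groups alone, the low-count filter left out Mmp8 and Mmp10, so neither was tested there.

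The second question was what Wnt-C59 did in allogeneic skin. Of the 39 members, 19 passed (10 higher and 9 lower in Wnt-C59 skin), where 50.8% of all genes passed (24.6% higher and 26.2% lower). The share of 48.7% is near that background. The 5 Mmp genes that fell were Mmp8, Mmp9, Mmp12, Mmp13 and Mmp19, all of them higher in allogeneic than in syngeneic skin. Both comparisons use the same 3 allogeneic libraries, so the values are given side by side and no overlap is drawn from them. The 5 that rose were Mmp2, Mmp15, Mmp17, Mmp23 and Mmp28.

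Among the inflammatory MMPs, Mmp12 separated the groups most clearly. It stood at 9.12, 3.82, 6.04 and 19.1 CPM in Wnt-C59 libraries 1, 2, 4 and 5, below every allogeneic library (39.2 to 293 CPM). Its log2 fold change was -4.31 ± 0.76 (SE, adjusted p = 0.00058), -4.90 without Wnt-C59 library 5. Mmp19 stood at 21.9, 28.3, 22.8 and 23.7 CPM, also below every allogeneic library (39.9 to 108 CPM), with a log2 fold change of -1.64 ± 0.35 (adjusted p = 0.0016).

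Mmp13, Mmp9 and Mmp8 fell too, but with overlap. Mmp13 stood at 20.0, 1.09, 0.365 and 1.81 CPM, and Wnt-C59 library 1 lay just above allogeneic library 2 (19.7 CPM). It had a log2 fold change of -5.26 ± 1.5 (SE, adjusted p = 0.012), -7.66 without Wnt-C59 library 1 and -4.54 without allogeneic library 1. Mmp9 stood at 82.9, 25.3, 19.9 and 9.03 CPM, with Wnt-C59 library 1 above allogeneic library 2 (37.2 CPM). The log2 fold change was -2.43 ± 0.79 (adjusted p = 0.021). The call ended on leaving out allogeneic library 1 (-1.88, adjusted p = 0.095) or 3 (-2.32, 0.056) and without Wnt-C59 library 2 (-2.31, 0.055) or 4 (-2.25, 0.058), and the log2 fold change was -3.36 without Wnt-C59 library 1. Mmp8 stood at 0.820, 2.28, 0.156 and 0.143 CPM, with 2 libraries above allogeneic library 2. Its log2 fold change was -4.18 ± 1.2 (adjusted p = 0.0097), -4.76 without allogeneic library 2 and -5.36 without Wnt-C59 library 2, and the call ended on leaving out allogeneic library 1 (-2.27, adjusted p = 0.11) and with limma-voom (-3.32, 0.088).

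Mmp3, Mmp10, Mmp11, Mmp14 and Mmp25 did not pass. Mmp11 stood at 26.8, 21.9, 13.6 and 11.1 CPM, all within the allogeneic range of 9.40 to 49.0 CPM, and passed as lower without allogeneic library 2 (-1.41, adjusted p = 0.018). Mmp10 stood at 2.26 CPM in Wnt-C59 library 1 and at 0.0496, 0.0521 and 0 CPM in libraries 2, 4 and 5. Without library 1 its log2 fold change was -7.18 and it passed (adjusted p = 0.0055). Mmp25 stood at 9.17, 3.62, 4.43 and 5.66 CPM, on both sides of the allogeneic values (log2 fold change -0.03, adjusted p = 0.96). Mmp14 stood at 185, 219, 140 and 143 CPM, with a log2 fold change of -0.07 ± 0.32 (adjusted p = 0.87) whose sign turned under several settings.

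Of the 5 MMPs that rose with Wnt-C59, 3 are membrane-anchored, while 3 of the 6 membrane-anchored MMPs tested did not pass. Mmp17, a lipid-anchored MMP, stood at 17.2, 17.7, 17.2 and 11.1 CPM, above all allogeneic libraries (3.95, 5.33 and 7.50 CPM), with a log2 fold change of 1.5 ± 0.27 (SE, adjusted p = 0.00038). Mmp15 stood at 50.7, 55.5, 48.3 and 42.4 CPM, above 18.2, 32.4 and 18.5 CPM in allogeneic skin (log2 fold change 1.10 ± 0.22, adjusted p = 0.001). Mmp23 stood at 9.69, 16.8, 14.1 and 13.4 CPM, above the allogeneic range of 4.00 to 5.39 CPM (log2 fold change 1.56 ± 0.34, adjusted p = 0.0018). For these 3 genes the groups did not overlap.

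Mmp2 and Mmp28 rose as well. Mmp2 stood at 238, 496, 290 and 247 CPM, above every allogeneic library, with a log2 fold change of 1.02 ± 0.36 (SE, adjusted p = 0.027). The call ended on leaving out allogeneic library 2 (0.73, adjusted p = 0.12) or 3 (1.07, 0.066) and without Wnt-C59 library 2 (0.72, 0.093). Mmp28, or epilysin, an MMP of keratinocytes, stood at 38.0, 27.9, 23.3 and 20.9 CPM, and its lowest library lay just below allogeneic library 2 (21.0 CPM). That call ended on leaving out allogeneic library 1 (0.56, adjusted p = 0.093), or on leaving out Wnt-C59 library 1 (0.69, adjusted p = 0.072).

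ADAMTS genes split evenly, 4 higher and 4 lower. Adamts14 stood at 32.4, 31.6, 40.1 and 34.6 CPM, above all allogeneic libraries (7.47 to 12.1 CPM), with the smallest adjusted p of the members in this comparison (log2 fold change 1.87 ± 0.27, SE, adjusted p = 8.5e-05). Adamts10 stood at 23.3, 44.3, 35.2 and 25.3 CPM, above 12.8 to 18.8 CPM (log2 fold change 0.94 ± 0.26, adjusted p = 0.0077). Adamts2 stood at 72.4, 183, 104 and 62.7 CPM, above 24.7 to 56.9 CPM, and its call ended on leaving out allogeneic library 2 (0.93, adjusted p = 0.059). Adamts8, an antiangiogenic ADAMTS, was low but separate, with means of 3.57 ± 0.409 CPM (SD, n = 4) and 0.525 ± 0.354 CPM (SD, n = 3), and it shares exon sequence with an opposite-strand transcript.

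The 4 that fell include proteases of versican and aggrecan. Of the 7 proteoglycan-cleaving ADAMTS tested, 3 fell, 1 rose (Adamts8) and 3 did not pass. Adamts9 stood at 7.23, 3.03, 6.04 and 8.22 CPM, below 26.5, 23.1 and 32.8 CPM in allogeneic skin (log2 fold change -2.16 ± 0.32, SE, adjusted p = 9e-05). Adamts1 stood at 51.9, 58.0, 37.8 and 41.4 CPM, below 101, 73.9 and 99.5 CPM (log2 fold change -0.95 ± 0.25, adjusted p = 0.0052). Both were separate between the groups. Adamts5 stood at 18.6, 27.9, 15.2 and 18.5 CPM and overlapped allogeneic library 2 (19.0 CPM). Its call ended on leaving out allogeneic library 1 (-0.59, adjusted p = 0.14) or 3 (-0.74, 0.081) and Wnt-C59 library 4 (-0.73, 0.065) or 5 (-0.80, 0.05). Adamts6, with means of 1.88 and 4.11 CPM, no longer passed on leaving out any of allogeneic libraries 1 and 3 and Wnt-C59 libraries 2, 4 and 5 (adjusted p from 0.078 to 0.12). Adamts18 stood at 0.410, 0.248, 0.417 and 0.808 CPM and Adamts20 at 1.59, 1.34, 2.19 and 1.90 CPM, and neither passed, beside hair follicle sums of 126 to 147 CPM.

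Of the TIMPs, Timp2 rose. It stood at 383, 649, 469 and 366 CPM, above 289, 281 and 344 CPM (log2 fold change 0.62 ± 0.23, SE, adjusted p = 0.033). The call ended on leaving out any 1 of allogeneic libraries 1 (0.58, adjusted p = 0.095), 2 (0.56, 0.1) and 3 (0.70, 0.05) and Wnt-C59 libraries 2 (0.41, 0.12) and 4 (0.61, 0.059). Timp1 stood at 17.0, 3.22, 5.99 and 6.13 CPM, with a log2 fold change of -1.69 ± 0.72 (adjusted p = 0.068). Without Wnt-C59 library 1 it was -2.35 and passed (adjusted p = 0.02). Timp3 had 0.24 ± 0.27 (adjusted p = 0.49) and Timp4, whose exons overlap Syn2, 1.38 ± 0.55 (adjusted p = 0.051). Timp4 passed as higher without allogeneic library 3 (1.89, adjusted p = 0.03), and likewise without Wnt-C59 library 1 (1.64, adjusted p = 0.02).

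Marker sums of leukocytes were lower in Wnt-C59 than in allogeneic skin. All 5 neutrophil markers tested fell, to sums of 66, 54.6, 8.59 and 15.4 CPM in libraries 1, 2, 4 and 5. Of 12 macrophage markers 11 fell and 1 rose, with sums of 1010 to 1620 CPM, and of 10 stressed keratinocyte genes 8 fell, with sums of 2800 to 5810 CPM. Of 10 fibroblast markers 9 rose, with sums of 1490 to 3700 CPM against 714 to 961, and of 12 adipocyte markers 11 rose, with sums of 1640 to 4280 against 547 to 1160. Their part in the protease results was not tested. With the adipocyte score as a covariate 0 of the 19 calls remained, in a fit where 4.22% of all genes passed. Adipocyte marker sums did not overlap between these groups, so that fit cannot separate the score from treatment. When only these 2 groups were fitted, Mmp2, Mmp9, Mmp28, Adamts2, Adamts5 and Timp2 just missed the threshold (adjusted p from 0.051 to 0.07), and Adamts6 missed it with no filter (0.058).

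GC content moved with the direction of these calls. The 10 members that rose had a median transcript GC of 57.6% (53.7% to 59.6%), and the 9 that fell had 43.7% (40.3% to 55.2%). With each library's GC trend removed 17 members passed (6 higher and 11 lower), where 40.4% of all genes passed. Of the 19 calls 11 were kept, 4 of them higher (Mmp17, Mmp23, Adamts8 and Adamts14) and 7 lower (Mmp8, Mmp9, Mmp12, Mmp13, Mmp19, Adamts1 and Adamts9). Mmp2, Mmp15, Mmp28, Adamts2, Adamts10 and Timp2 no longer passed as higher, nor Adamts5 and Adamts6 as lower. Mmp2 then had a log2 fold change of 0.49 (adjusted p = 0.27) and Timp2 of 0.22 (adjusted p = 0.41). In that fit 6 further members passed: Timp1 (-2.0, adjusted p = 0.047), Mmp11 (-1.57, 0.029), Adamts4 (-2.51, 0.03) and Adamts15 (-1.55, 0.014) as lower, and Timp4 (1.59, 0.04) and Mmp27 (1.83, 0.023) as higher.

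**Figure D3:**
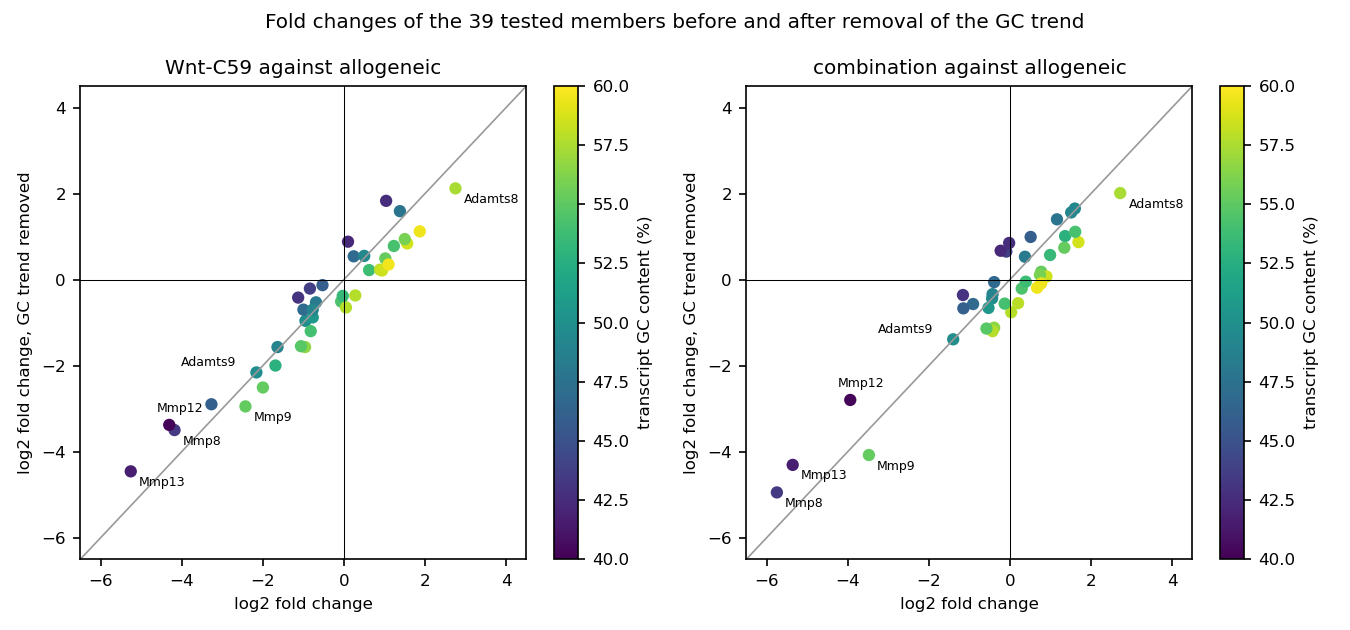
Log2 fold changes of the 39 tested members before (x axis) and after (y axis) removal of each library's GC trend, coloured by transcript GC content, for both treated groups against allogeneic skin. GC-rich genes lie below the line of equal values, and Mmp8, Mmp9, Mmp12 and Mmp13 stay at or below -2.80 on both axes except for Mmp9 at -2.43 on the x axis.

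The combination was set against the same 3 allogeneic libraries. Of the 39 members 14 passed (8 higher and 6 lower), where 54.5% of all genes passed (27.1% higher and 27.4% lower), so the members' share of 35.9% is below the background. The 4 Mmp genes that fell were Mmp8, Mmp9, Mmp12 and Mmp13, and the 4 that rose were Mmp2, Mmp15, Mmp17 and Mmp23. Adamts2, Adamts8, Adamts10 and Adamts14 rose and Adamts6 and Adamts9 fell. No Timp gene passed. The plot of fold changes by role shows these calls beside those of the other comparisons.

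**Figure D4:**
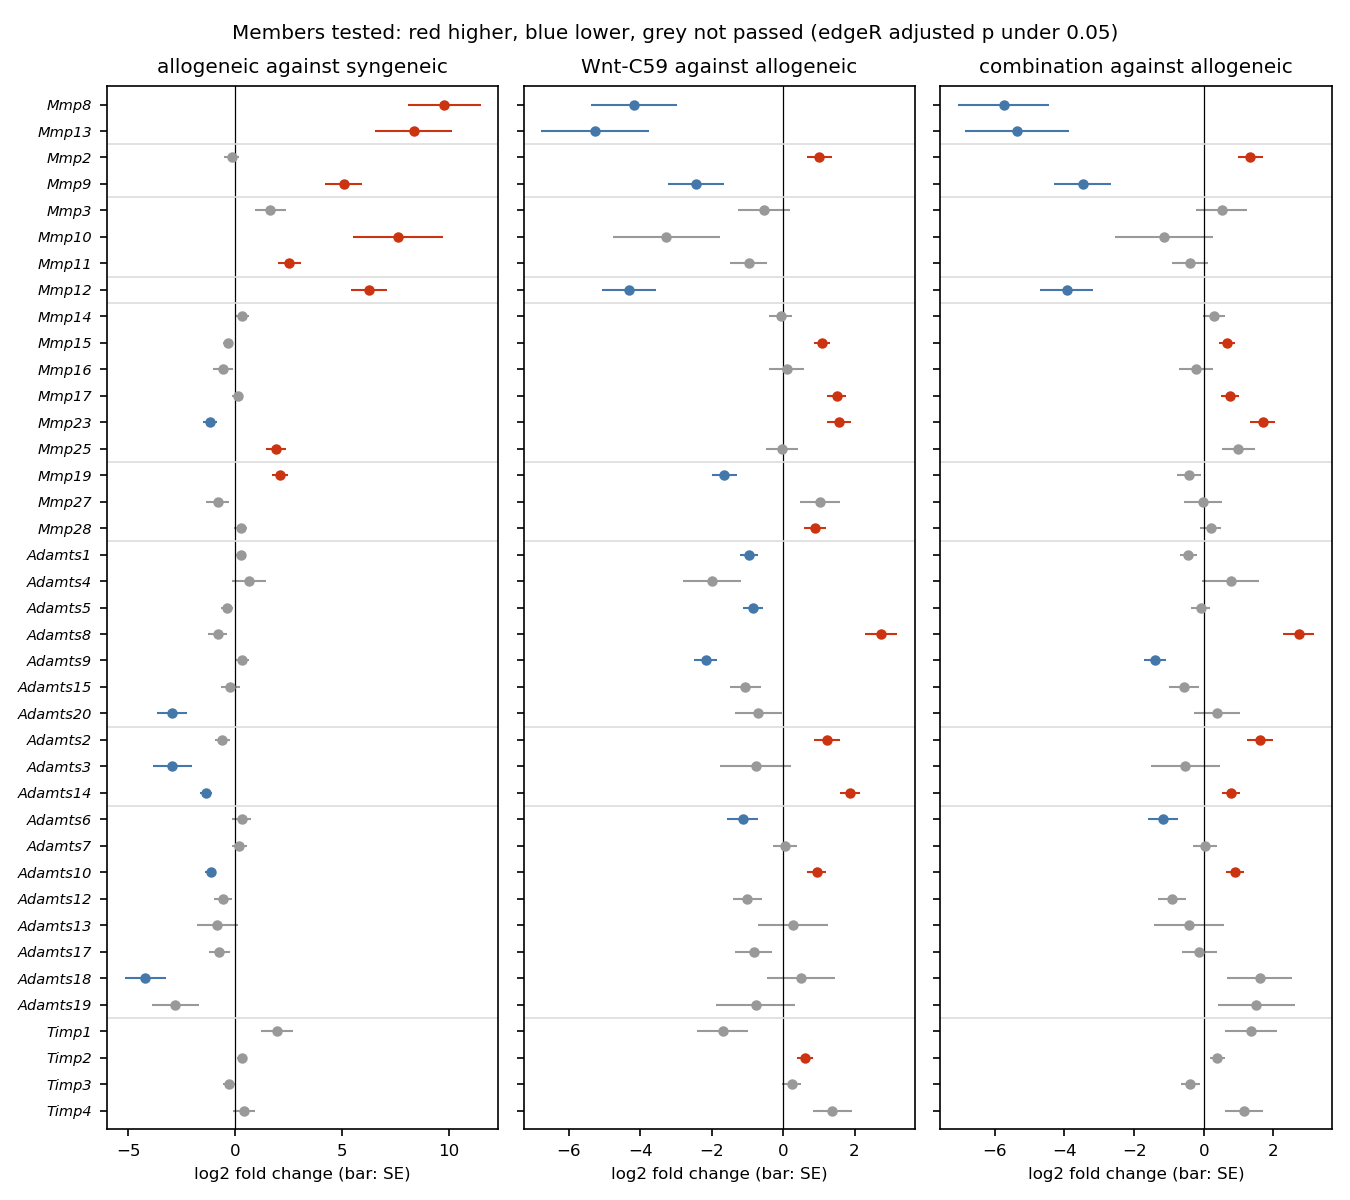
Log2 fold change with its standard error for the 39 tested members in 3 comparisons, grouped by role (grey lines divide the roles); red passed as higher, blue as lower and grey did not pass. The last 2 panels share their allogeneic libraries with each other and with the first, and the x axes differ: Mmp12 lies at 6.28, -4.31 and -3.94.

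The 4 MMPs that fell did so from high allogeneic values. Mmp12 stood at 18.7, 4.09, 7.23 and 18.9 CPM in combination libraries 2, 3, 4 and 5, below every allogeneic library (log2 fold change -3.94 ± 0.75, SE, adjusted p = 0.0008). Mmp9 stood at 26.5, 18.3, 6.16 and 15.5 CPM, below 37.2 to 303 CPM (log2 fold change -3.48 ± 0.82, adjusted p = 0.0033). Mmp13 stood at 9.89, 10.0, 0.396 and 1.22 CPM, below 19.7 to 397 CPM (log2 fold change -5.36 ± 1.5, adjusted p = 0.01). These 3 did not overlap with allogeneic skin. Without allogeneic library 1 the value for Mmp13 was -4.65, and without combination libraries 4 and 5 it was -4.48 and did not pass (adjusted p = 0.057). Mmp8 stood at 0.388, 0.529, 0.0565 and 0.136 CPM, on both sides of allogeneic library 2 (log2 fold change -5.75 ± 1.3, adjusted p = 0.0022). Leaving out allogeneic library 1 gave -3.84, limma-voom did not call it (-4.34, adjusted p = 0.053), and in a fit of these 2 groups alone the low-count filter left it out.

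The other MMPs that rose in allogeneic skin did not pass between combination and allogeneic skin. Mmp19 stood at 69.3, 79.7, 30.5 and 43.7 CPM, within or below the allogeneic range, and did not pass (adjusted p = 0.31). Mmp25 stood at 19.3, 13.5, 4.18 and 9.32 CPM against 5.51 to 6.09 CPM (adjusted p = 0.086), and passed without combination library 4 (1.26, adjusted p = 0.018). Mmp10 stood at 2.72, 6.93, 0.452 and 0.181 CPM, Mmp11 at 25.4, 14.8, 51.5 and 17.2 CPM, and Mmp3 at 56.9, 134, 19.7 and 20.2 CPM. None of these 3 passed, and combination library 3 had the highest Mmp3 level of all 15 libraries.

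Mmp2 rose to 459, 386, 331 and 404 CPM, above every allogeneic library (log2 fold change 1.34 ± 0.36, SE, adjusted p = 0.0062). Mmp23 stood at 19.1, 8.08, 13.6 and 18.1 CPM, above 4.00 to 5.39 CPM (log2 fold change 1.69 ± 0.35, adjusted p = 0.00091). Mmp15 stood at 43.1, 39.3, 24.9 and 38.9 CPM (log2 fold change 0.67 ± 0.22, adjusted p = 0.019) and overlapped allogeneic library 2. Its call ended on leaving out allogeneic library 1 (0.52, adjusted p = 0.091) or 3 (0.54, 0.086) and combination library 2 (0.58, 0.05). Mmp17 stood at 11.4, 8.08, 7.29 and 10.6 CPM and no longer passed on leaving out allogeneic library 1 (0.54, adjusted p = 0.12) or 2 (0.73, 0.055) and combination library 2 (0.63, 0.068). In a fit of these 2 groups alone neither Mmp15 (adjusted p = 0.07) nor Mmp17 (0.067) passed. Mmp14 stood at 236, 233, 205 and 214 CPM (log2 fold change 0.29 ± 0.32, adjusted p = 0.45), and Mmp28 at 19.2, 19.2, 12.4 and 17.7 CPM, within the allogeneic range.

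ADAMTS genes gave 4 higher and 2 lower calls. Adamts2 stood at 164, 151, 104 and 129 CPM, above 24.7 to 56.9 CPM, with a log2 fold change of 1.61 ± 0.38 (SE, adjusted p = 0.0027). Adamts10 stood at 30.3, 22.0, 30.7 and 41.2 CPM, above 12.8 to 18.8 CPM (log2 fold change 0.90 ± 0.26, adjusted p = 0.0092). Both were separate from allogeneic skin. Adamts14 stood at 14.8, 9.43, 17.5 and 23.3 CPM, overlapping 7.47 to 12.1 CPM, and its call ended on leaving out allogeneic library 1 (0.63, adjusted p = 0.094) or 3 (0.74, 0.058) and combination library 5 (0.56, 0.06), with limma-voom (0.72, 0.051) and in a fit of these 2 groups alone (0.77, 0.082). Adamts8 was again separate, at 3.51 ± 0.536 CPM (SD, n = 4). Without combination libraries 4 and 5, Adamts10 (0.66, adjusted p = 0.063) and Adamts14 (0.36, adjusted p = 0.24) did not pass.

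Adamts9 fell to 7.87, 14.8, 7.86 and 11.0 CPM, below every allogeneic library (log2 fold change -1.40 ± 0.31, SE, adjusted p = 0.0016). Adamts6, with a mean of 1.85 CPM, fell too, and its call ended on leaving out any of allogeneic libraries 1 and 3 and combination libraries 2, 3 and 5 (adjusted p from 0.067 to 0.11), and with no filter (0.055). Adamts1 stood at 65.2, 102, 42.3 and 59.7 CPM and Adamts5 at 41.9, 38.1, 22.5 and 32.3 CPM, both overlapping allogeneic skin. Without combination library 3, Adamts1 passed as lower (-0.72, adjusted p = 0.013). Adamts18 and Adamts20 split with the hair follicle genes: Adamts18 stood at 0.0776 and 0.0962 CPM in combination libraries 2 and 3 and at 1.92 and 2.04 CPM in libraries 4 and 5. Adamts20 stood at 1.20 and 0.721 CPM in the first pair and at 9.10 and 3.71 CPM in the second. Without libraries 4 and 5 both passed as lower than in allogeneic skin, at -1.86 (adjusted p = 0.049) and -1.53 (adjusted p = 0.013). Without combination library 2, Adamts18 passed the other way, as higher (2.0, adjusted p = 0.046). All 13 hair follicle genes passed as higher in combination than in allogeneic skin, and their part in these values was not tested.

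Timp1 spread widely in combination skin, at 68.1, 147, 12.4 and 41.8 CPM in libraries 2, 3, 4 and 5. Library 4 lay below, and library 3 far above, all allogeneic libraries (log2 fold change 1.36 ± 0.74, SE, adjusted p = 0.14). It passed without combination library 4 (1.71, adjusted p = 0.041) and without libraries 4 and 5 (2.05, adjusted p = 0.028). Timp2 stood at 461, 311, 414 and 409 CPM (0.39 ± 0.22, adjusted p = 0.15). Timp3 stood at 131, 87.7, 212 and 176 CPM (-0.39 ± 0.27, adjusted p = 0.23), and passed as lower without libraries 4 and 5 (-0.85, adjusted p = 0.017). Timp4 had 1.16 ± 0.55 (adjusted p = 0.087), and passed as higher without allogeneic library 3 (1.71, adjusted p = 0.04).

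**Figure D5:**
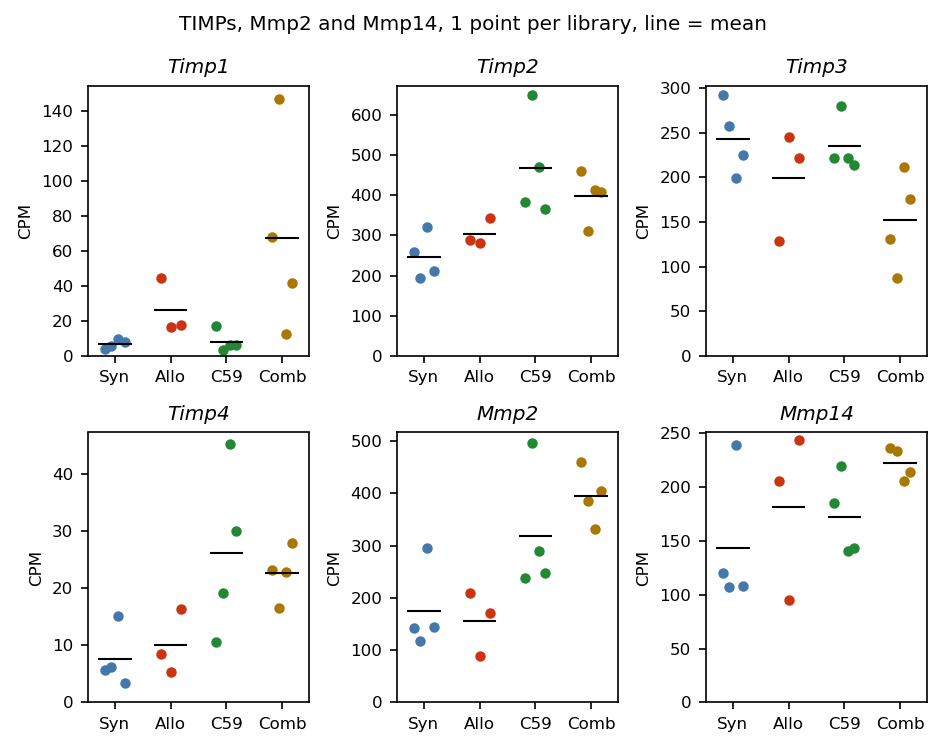
Levels of the 4 TIMPs, Mmp2 and Mmp14 in CPM, 1 point per library and a line at the group mean, with the y axes starting at 0 and differing between panels. Timp1 spreads from 12.4 to 147 CPM in combination skin and from 3.22 to 17.0 CPM in Wnt-C59 skin, and Mmp2 lies above all allogeneic values in both treated groups.

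In the combination, too, GC content moved with the direction of the calls against allogeneic skin. The 8 members that rose had a median transcript GC of 58.0% and the 6 that fell of 43.2%. With the GC trend removed 8 calls remained, where 43.6% of all genes passed. Mmp2 (0.74, adjusted p = 0.091), Mmp15 (-0.19), Mmp17 (0.11), Adamts10 (0.07), Adamts14 (-0.09) and Adamts6 (-0.36) no longer passed. Mmp8 (-4.95), Mmp9 (-4.08), Mmp12 (-2.80), Mmp13 (-4.31) and Adamts9 (-1.39) still passed as lower. With the adipocyte score as a covariate 0 calls remained, where 3.68% of all genes passed. Adipocyte marker sums did not overlap between these groups either, so the score cannot be separated from treatment there. Of the neutrophil markers 3 of 5 tested fell (sums of 15.4 to 94.6 CPM), of 12 macrophage markers 8 fell (sums of 1190 to 2190 CPM), and of 10 stressed keratinocyte genes 1 rose and 2 fell (sums of 5270 to 20600 CPM). Fibroblast markers rose in 9 of 10 (sums of 1890 to 3530 CPM), and adipocyte markers in 12 of 12 (3250 to 4250 CPM).

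What belumosudil added was asked by setting the combination against Wnt-C59, where both groups come from the treated libraries. With edgeR 0 of the 39 members passed, where 0.231% of all genes passed (0.102% higher and 0.129% lower). An unadjusted p under 0.05 was found for 13 members. The share of all genes at that level was not computed, so nothing is read from this count. DESeq2 called 5 (Timp1, Adamts4 and Mmp19 higher, Adamts14 and Mmp17 lower), where it called 8.06% of all genes. Limma-voom called 1 (Adamts14), and 0.322% of all genes. The median log2 fold change of the members was 0.24 against -0.01 for all genes. Missing the threshold does not show that the groups were alike.

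The members nearest to the threshold were Adamts14, Timp1 and Mmp19. Adamts14, at 9.43 to 23.3 CPM, lay below all Wnt-C59 libraries (31.6 to 40.1 CPM), with a log2 fold change of -1.09 ± 0.24 (SE, adjusted p = 0.068). It passed without combination library 5 (-1.30, adjusted p = 0.042). Mmp19, at 30.5 to 79.7 CPM, lay above all Wnt-C59 libraries (21.9 to 28.3 CPM), with an adjusted p of 0.093. Timp1 overlapped through combination library 4, with a log2 fold change of 3.06 ± 0.72 (adjusted p = 0.078).

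Among the remaining inhibitors and gelatinases, Timp2 had a log2 fold change of -0.23 ± 0.21 (SE, adjusted p = 0.55), Timp3 of -0.63 ± 0.25 (adjusted p = 0.18) and Timp4 of -0.21 ± 0.49 (adjusted p = 0.84). Mmp2 had 0.32 ± 0.32 (adjusted p = 0.6), Mmp9 had -1.04 ± 0.73 (adjusted p = 0.43) and Mmp14 had 0.37 ± 0.29 (adjusted p = 0.49). Adamts4, the aggrecanase that cytokines induce, stood at 30.7, 72.9, 8.03 and 11.7 CPM in combination and at 9.02, 2.53, 2.66 and 3.75 CPM in Wnt-C59 skin, with an adjusted p of 0.1. Without combination libraries 4 and 5, a setting chosen after the data were seen, 5 members passed, where 1.98% of all genes did. These were Timp1 (3.74), Adamts4 (3.53) and Mmp19 (1.64) as higher, and Adamts14 (-1.51) and Timp3 (-1.10) as lower. Stressed keratinocyte genes, none of which passed here, summed to 9500 and 20600 CPM in combination libraries 2 and 3, to 9220 and 5270 in libraries 4 and 5, and to 2800 to 5810 CPM in Wnt-C59 libraries. Their part was not tested.

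Both treated groups were also set against syngeneic skin, with the same 4 syngeneic libraries. In Wnt-C59 skin 22 members passed (12 higher and 10 lower, where 53.1% of all genes passed, 26.0% higher and 27.0% lower), and in combination skin 20 (13 higher and 7 lower, where 54.1% passed, 26.9% higher and 27.2% lower). No Mmp gene was lower in either comparison, while 9 of 17 were higher with Wnt-C59 and 8 of 17 with the combination. Adamts genes gave 1 higher and 10 lower calls of 18 with Wnt-C59, and 2 higher and 6 lower with the combination. For all 4 TIMPs a call was made with the combination: Timp1 (3.32 ± 0.73, SE, adjusted p = 0.0021), Timp2 (0.70 ± 0.21, adjusted p = 0.011) and Timp4 (1.57 ± 0.50, adjusted p = 0.017) higher, and Timp3 (-0.68 ± 0.25, adjusted p = 0.032) lower. With Wnt-C59, Timp2 (0.93 ± 0.21, adjusted p = 0.002) and Timp4 (1.79 ± 0.51, adjusted p = 0.0094) were higher.

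Several of these calls depended on the setting or on single libraries. With the combination, Timp2 (0.39, adjusted p = 0.11) and Timp3 (-0.38, 0.21) did not pass with the GC trend removed. With the adipocyte score Timp2 (0.52, 0.17) and Timp4 (1.60, 0.082) did not, and Timp4 did not without combination libraries 4 and 5 (1.40, 0.079). With the combination, Timp3 no longer passed on leaving out any of syngeneic libraries 1, 2 and 4 and combination libraries 2 and 3 (adjusted p from 0.057 to 0.11), Timp4 no longer passed on leaving out syngeneic library 1 (adjusted p = 0.05), and Timp1 was 2.60 without combination library 3. Mmp12 stood above syngeneic skin in both treated groups, with log2 fold changes of 1.97 ± 0.70 (SE, adjusted p = 0.032) and 2.34 ± 0.71 (adjusted p = 0.014), and the first no longer passed on leaving out Wnt-C59 library 5 (1.39, adjusted p = 0.11) or any of syngeneic libraries 2, 3 and 4 (adjusted p from 0.068 to 0.071), or with no filter (0.07). Neither passed with limma-voom (adjusted p = 0.14 and 0.07) or with the adipocyte score (0.13 each). Mmp9 was higher with Wnt-C59 (2.65 ± 0.77, adjusted p = 0.013, and 1.73 without Wnt-C59 library 1), and had 1.61 ± 0.75 with the combination (adjusted p = 0.089). Adamts20 was lower in both (-3.65 ± 0.65, adjusted p = 0.00047, and -2.59 ± 0.62, adjusted p = 0.003, the latter -3.55 without combination library 4).

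Genes that work with these proteases were read from 4 further lists, whose counts stand beside the 29.8%, 50.8% and 54.5% of all genes that passed between allogeneic and syngeneic, Wnt-C59 and allogeneic, and combination and allogeneic skin. Nothing particular to a list is read from its count. Of 15 activators, receptors and other inhibitors, 13 were tested, and 7 rose and 3 fell in allogeneic against syngeneic skin. Plau, the urokinase that generates plasmin and so activates MMP precursors, rose from 40.1 ± 1.21 (SD, n = 4) to 102 ± 32.5 CPM (SD, n = 3), and its receptor gene Plaur from 4.81 ± 0.915 to 61.7 ± 71.4 CPM. Pcsk6, a proprotein convertase, fell from 69.5 ± 2.68 to 25.8 ± 11.6 CPM. Against allogeneic skin, the list had 4 higher and 3 lower with Wnt-C59 and 4 higher and 2 lower with the combination, Pcsk6 higher in each.

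Of 17 other matrix-degrading enzymes 9 rose and 1 fell in allogeneic skin. Ctss, the cathepsin of antigen-presenting cells, had a mean of 57.0 ± 14.4 CPM (SD, n = 4) in syngeneic and 1020 ± 174 CPM (SD, n = 3) in allogeneic skin. Adam8 rose from 11.1 ± 0.955 to 144 ± 101 CPM, and the heparanase gene Hpse from 9.60 ± 1.84 to 48.6 ± 8.80 CPM. Against allogeneic skin 2 were higher and 9 lower with Wnt-C59, and 4 higher and 7 lower with the combination, with Ctss at 148 ± 63.8 and 228 ± 78.9 CPM (SD, n = 4 each).

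Of 13 matrix substrates 1 rose and 7 fell in allogeneic skin, while 6 rose and 2 fell with Wnt-C59 and 8 rose and 1 fell with the combination, both against allogeneic skin. Col1a1, a chain of type I collagen, had means of 2110 ± 1180 CPM (SD, n = 4) in syngeneic, 392 ± 127 (SD, n = 3) in allogeneic, 1490 ± 459 (SD, n = 4) in Wnt-C59 and 1520 ± 743 CPM in combination skin. Col3a1 followed the same order of vehicle groups, at 1810 ± 504 and 649 ± 318 CPM. Of 7 ADAMTS-like and related matrix proteins, 1 rose and 1 fell in allogeneic skin: Adamtsl4 from 18.1 ± 4.15 to 49.7 ± 6.97 CPM, and Adamtsl1 from 9.50 ± 1.38 to 5.67 ± 0.931 CPM. The same list had 3 higher with Wnt-C59, and 1 higher and 2 lower with the combination. No gene of the 4 lists passed between the combination and Wnt-C59.

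Sebaceous gland markers fell in 8 of 10 in allogeneic skin (sums of 984 to 1110 CPM in syngeneic and 201 to 470 CPM in allogeneic libraries), and summed to 1910 to 5140 CPM with Wnt-C59 and 1140 to 1900 CPM with the combination, where 9 of 10 rose against allogeneic skin in each. The median log2 fold change of the list was -6.02 in allogeneic against syngeneic skin, and 6.42 and 6.0 in the treated groups against allogeneic skin. Of 8 mast cell markers 2 rose and 1 fell in allogeneic skin (60.1 to 88.5 and 101 to 246 CPM). With Wnt-C59 1 rose and 5 fell against allogeneic skin (23.7 to 77.7 CPM), and with the combination 1 rose (176 to 215 CPM). The part of these glands and cells in the protease results was not tested. None of 10 skeletal muscle markers passed in any comparison (edgeR), and 4 of 10 fibroblast and 3 of 12 adipocyte markers fell. Markers of hair follicle, sebaceous gland and fibroblasts were present in syngeneic libraries, which fits the label of skin.

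Members not yet given were Mmp24 and Adamts16, at most 0.325 and 0.395 CPM in any library, and Mmp16, Mmp27, Adamts7 and Adamts13, which passed in no comparison of the test used throughout. In that test Adamts12, Adamts15, Adamts17 and Adamts19 passed as lower in Wnt-C59 than in syngeneic skin, with Wnt-C59 means of 6.17, 5.25, 1.37 and 0.159 CPM and syngeneic means of 18.5, 12.9, 4.06 and 1.99 CPM. Adamts15 no longer passed on leaving out syngeneic library 1 (adjusted p = 0.05) or with the adipocyte score (0.18). With the combination Adamts12 alone of these 4 passed against syngeneic skin, at a mean of 6.60 CPM, and not with the adipocyte score (adjusted p = 0.096). Against allogeneic skin other settings did call them. In Wnt-C59 skin Adamts12 and Adamts15 passed as lower with other size factors (adjusted p = 0.043 and 0.045), with DESeq2 (0.026 each), and without allogeneic library 2 (0.0085 and 0.002) or Wnt-C59 library 5 (0.047 and 0.045), and Adamts17 without Wnt-C59 library 1 (-1.44, adjusted p = 0.021). In combination skin Adamts12 passed as lower without allogeneic library 2 (-1.25, adjusted p = 0.013) or combination library 5 (-1.17, 0.032), and Adamts15 without allogeneic library 2 (-1.0, 0.02). Without allogeneic library 2, the only one of its group with Adamts19 counts, Adamts19 passed as higher in combination skin (adjusted p = 0.0041) and as lower in allogeneic than in syngeneic skin (0.0025).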

How the data were processed

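Skin RNA of 15 libraries in 4 groups was analysed from 1 deposited table of estimated counts per Ensembl gene, many of them not whole numbers. The submitters' processing notes name FastQC, Trim Galore, HISAT2, featureCounts and build GRCm39, with no versions; how the authors' estimated counts came to hold fractions, and the strand setting, are not given in the sources used here. A count table was planned for, so values were rounded to whole numbers. Treated columns carry their own numbers, and the combination columns were matched to their group by elimination.

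Symbols (91.5% of genes), transcript length, GC content and exon overlaps came from GENCODE M21, and promoters from RefSeq, both of build GRCm38, not the build of the table. No coordinate was converted. The members and all gene lists were chosen with earlier results of these data known.

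Genes were filtered with filterByExpr and tested with edgeR 4.0.16 in R 4.3.3 (TMM scaling, robust quasi-likelihood test, group as the only term, all 15 libraries), with Benjamini-Hochberg adjustment over all 18651 genes tested and a threshold of 0.05. Every adjusted p is from this test unless another tool is named. CPM uses the TMM-scaled library size. Where groups are said not to overlap, this describes the libraries of that gene, and the share of all genes without overlap was not counted. The fit was tested on simulated data. Totals of 16.26 M to 28.78 M counts limit low genes most, and counting intervals cover counting error only.

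Each library's value is given for members called in a main comparison with a group mean of at least 5 CPM. Fold change and SE are given for up to 10 members a comparison, ranked by adjusted p, plus the TIMPs, Mmp2, Mmp9 and Mmp14, and up to 3 genes of each list. Other members named were chosen after their values were seen. Alternatives were other size factors, DESeq2 1.42.0, limma-voom (limma 3.58.1), no filter, only the groups compared, GC trend removal (spline with 4 degrees of freedom per library), an adipocyte marker covariate, leaving out libraries and a replicate block.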

Additional observations from a re-analysis of the deposited data

Results flagged for a closer look

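Within groups of 4 libraries, the gap between the highest or lowest library and its neighbour was set against the group's range for 22 members, with 66 such tests. A gap above Dixon's 95% critical value marks a library far from the others. For normally distributed values chance alone marks about 1 group in 20, a rate that need not hold for CPM of low or skewed genes. There were 9 such values, and no explanation of them was tested.

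In syngeneic skin, library 3 stood high for Mmp2 (295 CPM, next 144) and Mmp19 (27.0, next 14.6). It held the only Mmp8 signal of its group (0.0458 CPM, from 1 count). Library 1 stood high for Adamts10 (48.1 CPM, next 34.7) and Adamts14 (31.7, next 22.5), and library 4 held the only Mmp10 signal (0.0882 CPM). Where all other libraries are at 0 the gap equals the range, so these Mmp8 and Mmp10 values were bound to be marked. In Wnt-C59 skin, library 1 stood high for Mmp10 (2.26 CPM, next 0.0521) and Mmp13 (20.0, next 1.81), and library 5 stood low for Mmp17 (11.1 CPM, next 17.2).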

How the results depend on the processing

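The number of members called moved most with the adipocyte score as a covariate: from 14 to 2 for allogeneic against syngeneic skin, from 19 to 0 for Wnt-C59 and from 14 to 0 for the combination against allogeneic skin, and, against syngeneic skin, from 22 to 14 and from 20 to 9. The share of all genes called fell as well. In the same order it went from 29.8% to 8.64%, 50.8% to 4.22%, 54.5% to 3.68%, 53.1% to 39.7% and 54.1% to 35.6%. Adipocyte marker sums were 547 to 1160 CPM in allogeneic, 1640 to 4280 in Wnt-C59 and 3250 to 4250 in combination libraries. Score and group go together there, so calls lost with this covariate do not show a dependence on adipocytes. With the GC trend removed the combination kept 8 against allogeneic skin, and calls for Wnt-C59 changed from 10 higher and 9 lower to 6 and 11. All-gene shares in that fit were 43.6% for the combination and 40.4% for Wnt-C59. Between the combination and Wnt-C59, DESeq2 called 5 and limma-voom 1, and leaving out combination libraries 4 and 5, chosen after the data were seen, gave 5. Of all genes, these settings called 8.06%, 0.322% and 1.98%. Leaving out 1 library at a time gave 12 to 17, 13 to 23, 10 to 16, 0 to 1, 19 to 22 and 16 to 23 calls, in the order allogeneic against syngeneic, Wnt-C59 and combination against allogeneic, combination against Wnt-C59, and Wnt-C59 and combination against syngeneic. All-gene shares in that order were 20.4% to 27.4%, 41.5% to 48.9%, 46.4% to 52.6%, 0.0054% to 0.242%, 44.7% to 53.6% and 47.1% to 55.2%. The cause was not tested.

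With the replicate number as a block, in a fit of these groups alone, 11 members were called between allogeneic and syngeneic skin, against 13 without the block, and 9 with the block and the GC trend removed together. All-gene shares in these fits were 16.8%, 27.5% and 17.6%. Adamts3 (adjusted p = 0.095) and Mmp23 (0.092) did not pass with the block, and with both steps Adamts10 (0.061) and Adamts14 (0.059) did not either. Same-numbered libraries did not deviate together (r of -0.048, -0.143 and 0.008). The low-count filter left Mmp8 and Mmp10 untested in these fits. For comparisons with a treated group, no paired analysis was possible because the treated columns carry numbers that are not those of the titles.

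For the folds given by the rule for named genes, signs turned in these cases, in log2 fold change. Over all single omissions, the range was -0.11 to 0.99 for Timp4 and -0.43 to 0.21 for Mmp2 (allogeneic against syngeneic), -0.38 to 0.18 for Mmp14 (Wnt-C59 against allogeneic) and -0.47 to 0.18 for Timp4 (combination against Wnt-C59). For allogeneic against syngeneic skin, Timp3 was 0.14 with the adipocyte score, Timp4 -0.11 without allogeneic library 3, and Mmp2 0.05 with the GC trend removed, 0.21 without syngeneic library 3 and 0.14 without allogeneic library 2. For Wnt-C59 against allogeneic skin, with the adipocyte score Mmp8 was 1.62 and Timp3 -0.47, and Mmp14 was 0.01 with limma-voom and without Wnt-C59 library 4, 0.03 and 0.18 without allogeneic libraries 1 and 3, and 0.00 without Wnt-C59 library 5. For the combination against allogeneic skin, with the GC trend removed Mmp15 was -0.19, Timp2 -0.05 and Mmp14 -0.21, and with the adipocyte score Mmp8 was 0.15, Timp2 -0.04 and Mmp14 -0.18. Between the combination and Wnt-C59, Timp4 was 0.18 without Wnt-C59 library 4. Outside that rule, called values that turned were Adamts14 (-0.09 with the GC trend removed) and Adamts6 (0.05 with the adipocyte score), both for the combination against allogeneic skin, and among values not called there Adamts18 (-1.86) and Adamts20 (-1.53) turned without combination libraries 4 and 5. Under the same rule, of the alternatives for called values, 721 kept the call, 74 lost it and 3 turned its sign; of those for values not called, 302 stayed, 21 passed and 16 turned. The depth limits Mmp1a, Mmp1b, Mmp8 and Mmp10 in syngeneic skin, which held 0 to 2 counts.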
